A study of Mus musculus with 9 samples.

Results

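The 33 genes described here encode proteins of the PIWI-interacting RNA (piRNA) pathway and of germ granules. They were taken by symbol from a list of PIWI proteins, Tudor domain proteins, piRNA biogenesis factors and chromatoid body proteins. All 33 were found among the 32035 genes that had a transcript in the deposited tables. RNA of whole testes was measured by poly(A) RNAseq in 3 WT, 3 *Kpna6* ΔIBB/ΔIBB and 3 *Kpna6*-/- samples. WT testes came from C57Bl6/N mice, both mutant lines had been backcrossed to this strain for 10 generations, and every sample was labelled as 15 weeks old. *Kpna6* encodes the nuclear import adaptor importin alpha7. In *Kpna6* ΔIBB/ΔIBB mice, the second exon is missing and a truncated protein without the importin beta binding domain is made from a shortened mRNA. In *Kpna6*-/- mice, a gene trap lies in the first intron. According to the study's methods and description of the lines, germ cells of these mice still make full-length protein from a testis promoter downstream of the trap, so that the line does not remove the protein from germ cells. Both alleles are constitutive, and no cell type was isolated.

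piRNAs are small RNAs that germ cells load onto PIWI proteins. They are cut from long precursor transcripts on the surface of mitochondria and in neighbouring granules, trimmed and methylated at their ends. With the PIWI proteins they silence transposons in fetal germ cells and cleave RNA in meiotic and postmeiotic cells of the adult testis. Tudor domain proteins bind methylated arginines of PIWI proteins and build the granules, of which the chromatoid body of round spermatids is the best known. The transcription factor A-MYB, the product of *Mybl1*, drives many pathway genes and piRNA precursors in pachytene spermatocytes.

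The libraries held between 24859751 and 31484692 estimated counts on genes, and the 33 genes took between 0.544% and 0.598% of them. *Kpna6* (chr4:129643980-129672767, GRCm38) had 201.2, 324.6 and 333.6 normalized CPM in WT replicates 1 to 3, with CPM standing for counts scaled by library size and TMM factor. It had 81.22, 85.33 and 81.81 CPM in *Kpna6* ΔIBB/ΔIBB and 247.1, 248.8 and 261.9 CPM in *Kpna6*-/- testes, so that the allele with the gene trap did not show as a loss of the transcript. WT replicate 1 stood apart from the other WT samples. It held the lowest WT value, as CPM, for 24 of the 33 genes, and the coefficient of variation among the WT samples had a median over the genes of 6.6%, against 4.42% in *Kpna6* ΔIBB/ΔIBB and 3.27% in *Kpna6*-/- samples. Counts without this sample are given beside the results.

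Marker lists showed which cell types the tissue contained, and no marker was at 0 in all samples. In *Kpna6* ΔIBB/ΔIBB compared with WT testes, 10 of 10 round spermatid markers were lower, and their summed level was 1649 to 1819 TPM (a scale per transcript length) against 2003 to 2171 TPM. Of the elongating spermatid markers 10 of 10 were lower too. All 12 Sertoli cell markers were higher, with a summed level of 1137 to 1390 TPM against 729.6 to 810.1 TPM. Of 9 pachytene markers tested 1 was higher and 3 were lower, of 10 leptotene to zygotene markers 2 and 4, and of 10 spermatogonial markers 4 and 1. Among macrophage, peritubular and endothelial, and Leydig cell markers, 3 of 8, 3 of 8 and 2 of 8 were higher and 0 lower. Over all genes tested, 17.7% were higher and 18.9% lower in this comparison. In *Kpna6*-/- compared with WT testes, 1 Sertoli cell marker was higher and 1 spermatogonial marker lower, where 0.889% and 0.712% of all genes were. All 12 Sertoli cell markers had log2 fold changes above 0 (median 0.24), and their summed level of 856.6 to 938.0 TPM lay above that of WT. All 10 round spermatid markers lay below 0 (median -0.08), with an overlapping sum of 1907 to 2031 TPM. Of the elongating spermatid markers 8 lay above 0 and 2 below. In whole tissue, fewer cells of a type and less RNA per cell cannot be told apart, and the part of these shifts in the results on the 33 genes was not tested.

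The genes covered a wide range of levels in WT testes, from 975.2 TPM for *Mael* to 0.716 TPM for *Piwil4*. The 8 genes above 100 TPM were *Mael*, *Gtsf1l*, *Gtsf1*, *Adad1*, *Tdrd6*, *Ddx4*, *Tdrd7* and *Piwil1*. *Mael* encodes Maelstrom, a granule protein needed for transposon silencing, and alone made up 23.27% of the summed TPM of the list. *Gtsf1l* and *Gtsf1*, which encode small zinc finger cofactors of PIWI proteins, followed with 559.3 and 554.9 TPM, and their WT samples overlapped. Another 19 genes lay between 10 and 100 TPM, from *Tdrd9* with 65.08 to *Mov10* with 11.87 TPM. The 6 genes below 10 TPM were *Exd1*, *Pnldc1*, *Tex19.1*, *Spocd1*, *Btbd18* and *Piwil4*. The PIWI genes *Piwil1*, *Piwil2* and *Piwil4* stood at 180.3, 55.06 and 0.716 TPM. Between *Piwil2* and *Tdrd12*, at 45.22 TPM, each gene overlapped with its neighbour in the order, and so did *Gpat2*, *Stk31*, *Asz1* and *Henmt1* at 37.23 to 36.97 TPM. Summed over the list, the level was 4060 to 4363.4 TPM in WT, 3778.7 to 3913.3 TPM in *Kpna6* ΔIBB/ΔIBB and 4011.9 to 4098.7 TPM in *Kpna6*-/- testes. The *Kpna6* ΔIBB/ΔIBB samples did not overlap with either of the other groups. By role, this gap lay in the group of *Gtsf1l*, *Gtsf1*, *Mael* and *Fkbp6*. It summed to 2053 to 2210 TPM in WT and 1780 to 1868 TPM in *Kpna6* ΔIBB/ΔIBB testes. *Gtsf1l*, *Gtsf1* and *Mael* had lower means of 405.2, 455.5 and 906.1 TPM in *Kpna6* ΔIBB/ΔIBB testes. *Fkbp6* went against the gap, with a mean of 43.68 TPM against 31.69 TPM in WT. The other genes, summed in groups by role, overlapped between WT and *Kpna6* ΔIBB/ΔIBB in every group.

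**Figure D1:**
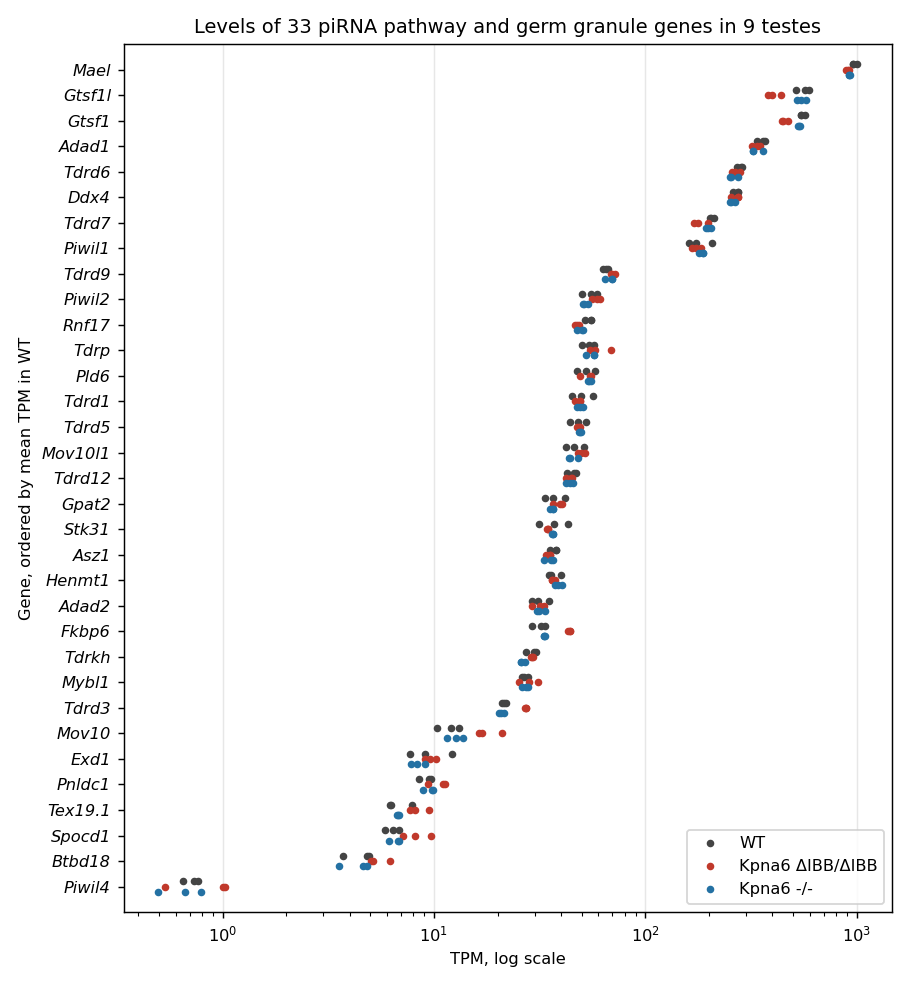
Level of each of the 33 genes in TPM on a log axis, with 1 point per testis and the genes ordered by their WT mean. The order spans *Mael* at 975.2 TPM to *Piwil4* at 0.716 TPM, and the *Kpna6* ΔIBB/ΔIBB points lie left of the others for *Gtsf1l* and *Gtsf1* and right of them for *Fkbp6*, *Tdrd3* and *Mov10*.

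RefSeq promoter windows on GRCm38.p6 were at hand for 25 of the 33 genes, with 250 bases before and 50 after each start. The letters GGCAGTT and CAGTTG, both of them forms of the site that MYB proteins bind, were searched on both strands, and in a run GGCAGTTG the matches overlap. GGCAGTT was found in the windows of 2 of the 25 genes (8.0%) and of 4.76% of all 27025 genes with a window. CAGTTG was found for 4 of 25, namely *Piwil1*, *Tdrd7*, *Fkbp6* and *Adad2*, and for 15.36% of all genes. The cAMP response element TGACGTCA was in the window of none of the 25 genes and of 2.03% of all genes. These matches are letters in a window and not measured binding. The first base of the longer motif lay 75 bases before a RefSeq start of *Piwil1* (chr5:128736160-128736189, plus strand) and 83 bases before one of *Tdrd7* (chr4:45965241-45965270, plus strand). *Tdrd7* had 3 windows, of which 1 held the motif, and the *Piwil1* start lies inside the gene as GENCODE annotates it, which begins at 128702524. The stretches of 30 bases around the motif are shown with the motif in capitals.
Piwil1: cggagggatctGGCAGTTggggctgttagc
Tdrd7: gtggggcctttGGCAGTTgatgtaggtcat

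In *Kpna6* ΔIBB/ΔIBB testes, 11 of the 33 genes had less RNA and 4 had more than in WT, relative to each library's other RNA. The cutoff was an adjusted P-value below 0.05 in edgeR's quasi-likelihood test over all genes. Amounts of RNA per testis were not measured. The genes with the lowest fold changes were the PIWI cofactors *Gtsf1l* and *Gtsf1* and the Tudor gene *Rnf17*, and those with the highest were the helicase gene *Mov10* and the loading factor gene *Fkbp6*. All changes were smaller than 2-fold, from 0.665-fold to 1.369-fold. The 11 lower genes were 33.3% of the list, where 18.9% of all 18797 genes tested were lower, and the 4 higher genes were 12.1%, where 17.7% of all genes were higher. The median log2 fold change over the 33 genes was -0.12, against 0.01 over all genes tested, and 23 of the genes lay below 0 (19 by library size only and 15 with limma on log2(TPM + 1)), where 48.7% of all genes did by TMM. When scaled by library size only, the median over all genes shifted to 0.11. Under that scaling 70.0% of the genes called were higher instead of 48.4%. It gave 5 lower and 5 higher genes of the list (15.2% each), where 2326 and 5416 of all 18797 genes were. The list's median minus that of all genes was -0.12 by TMM and -0.07, -0.10 and -0.04 with 3 limma analyses of TPM values, on log2(TPM + 1), on log2(TPM + 0.1) and on log2(TPM + 1) without a filter. Without WT replicate 1, 16 genes of the list (48.5%) were lower and 4 (12.1%) higher, where 3384 and 3113 of all 19081 genes were. Without WT replicate 3, 7 (21.2%) were lower and 3 (9.1%) higher, where 2984 and 2664 of all 19114 genes were.

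**Figure D2:**
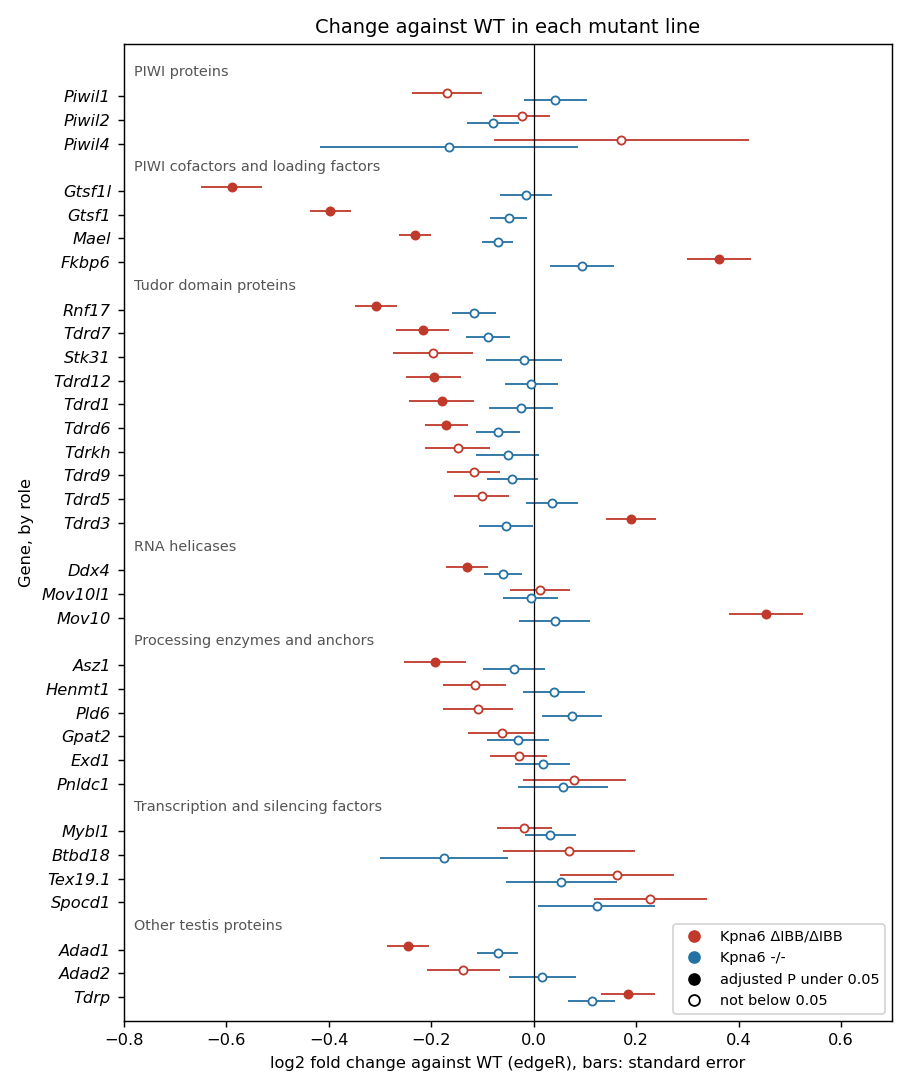
Log2 fold change against WT for each of the 33 genes in *Kpna6* ΔIBB/ΔIBB (red) and *Kpna6*-/- testes (blue) by edgeR, with bars for the standard error and filled points for an adjusted P-value below 0.05. The red points reach from -0.59 for *Gtsf1l* to 0.45 for *Mov10* and 15 of them are filled, whereas no blue point is filled.

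All 4 PIWI cofactors and loading factors passed the test in *Kpna6* ΔIBB/ΔIBB testes, 3 lower and 1 higher, where 18.9% of all genes tested were lower and 17.7% higher. This group of 4 was put together with earlier results of these data known. *Gtsf1l*, a paralogue of *Gtsf1*, had 260.9, 237.2 and 266.4 CPM in WT, 165.6, 158.3 and 182.6 CPM in *Kpna6* ΔIBB/ΔIBB and 240.3, 250.4 and 266.6 CPM in *Kpna6*-/- testes. The 3 *Kpna6* ΔIBB/ΔIBB samples were lower than all 6 others. The log2 fold change against WT was -0.59 (standard error, SE, 0.06, adjusted P = 4.5e-05), or a relative level 33.5% lower. *Gtsf1*, whose product speeds up RNA cleavage by PIWI proteins, had 230.5, 233.7 and 239.5 CPM in WT, 175.5, 172.7 and 184.7 CPM in *Kpna6* ΔIBB/ΔIBB and 225.4, 228.8 and 226.7 CPM in *Kpna6*-/- testes. Again the *Kpna6* ΔIBB/ΔIBB samples were the lowest, and none of the 3 groups overlapped. The log2 fold change was -0.40 (SE 0.04, adjusted P = 4.53e-05). *Mael* had 1030.0, 1035.0 and 1057.0 CPM in WT, 866.4, 883.3 and 902.1 CPM in *Kpna6* ΔIBB/ΔIBB and 993.4, 981.5 and 1002.0 CPM in *Kpna6*-/- testes. The 3 groups did not overlap, and its log2 fold change in *Kpna6* ΔIBB/ΔIBB testes was -0.23 (SE 0.03, adjusted P = 0.000233). On the log2(TPM + 1) scale it was -0.11 with limma and did not pass (adjusted P = 0.0663).

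*Fkbp6*, an inactive isomerase that works with HSP90 in loading piRNAs, went the other way. It had 26.51, 29.81 and 29.77 CPM in WT, 37.26, 36.64 and 36.34 CPM in *Kpna6* ΔIBB/ΔIBB and 30.68, 30.87 and 30.38 CPM in *Kpna6*-/- testes. The *Kpna6* ΔIBB/ΔIBB samples were the highest of the 9, and the genotypes did not overlap. The log2 fold change was 0.36 (SE 0.06, adjusted P = 0.00115), or a relative level 28.5% higher.

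**Figure D3:**
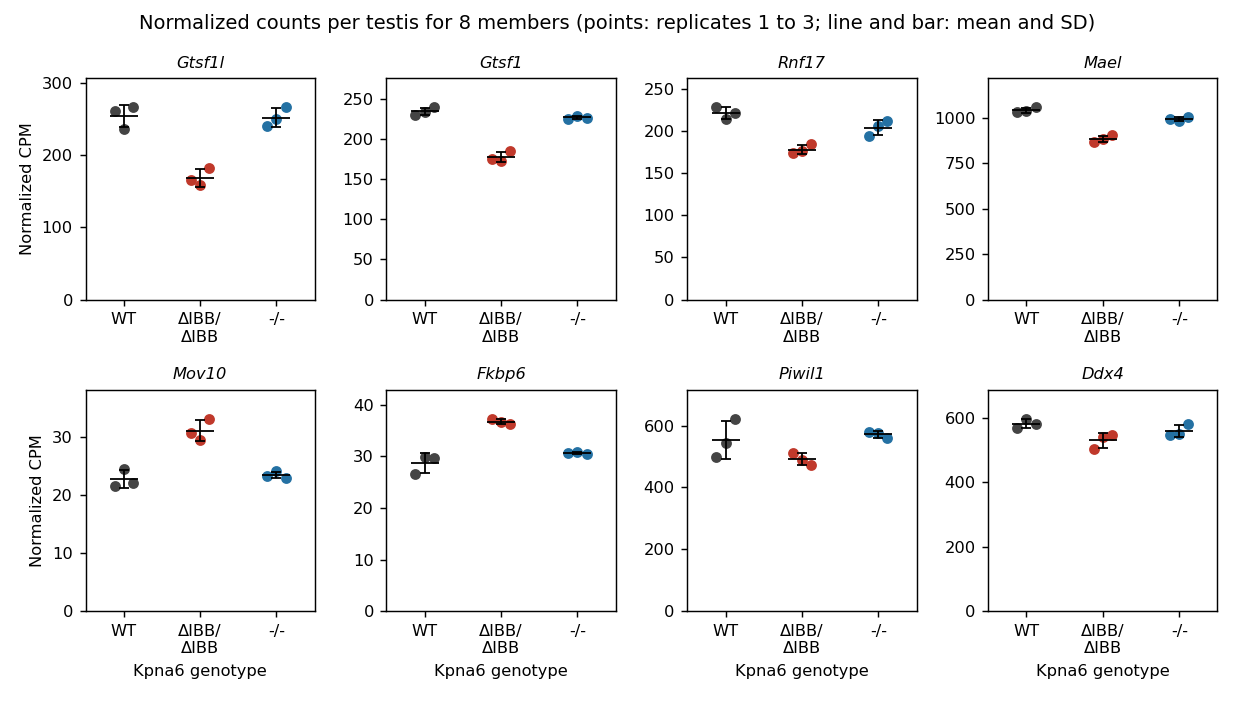
Normalized CPM of 8 genes in the 3 testes of each genotype, with axes from 0, a point per testis in the order of replicates 1 to 3, a line at the mean and a bar of 1 SD. *Gtsf1l*, *Gtsf1*, *Rnf17* and *Mael* were lowest and *Mov10* and *Fkbp6* highest in the *Kpna6* ΔIBB/ΔIBB samples, and *Piwil1* overlapped between *Kpna6* ΔIBB/ΔIBB (474.2 to 513.0 CPM) and WT (500.0 to 621.5 CPM).

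The bases before the starts of the 4 genes with the largest changes among those with a window are shown because these genes carry the results. Shown are 150 bases that lie upstream of the RefSeq and the GENCODE start, on the minus strand in each case, for *Gtsf1l* (chr2:163089602-163089751), *Gtsf1* (chr15:103430471-103430620), *Mov10* (chr3:104818564-104818713) and *Fkbp6* (chr5:135350045-135350194) on GRCm38.p6. The *Gtsf1l* stretch directly precedes the RefSeq start but not the GENCODE start, since the GENCODE transcript that was quantified begins further downstream, at 163087855. None of the 3 searched motifs lies in these stretches, so they have no capitals. The stretch of *Gtsf1l* held 0 CG pairs at 42.7% G and C, and that of *Fkbp6* held 15 at 64.7%. *Gtsf1* and *Mov10* held 4 each at 56.7% and 57.3%, where all promoter windows had a median of 4 CG pairs and 54.0% G and C over the 150 bases before the start.
Gtsf1l: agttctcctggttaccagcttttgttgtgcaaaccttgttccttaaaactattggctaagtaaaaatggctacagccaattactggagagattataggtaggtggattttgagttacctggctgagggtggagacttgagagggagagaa
Gtsf1: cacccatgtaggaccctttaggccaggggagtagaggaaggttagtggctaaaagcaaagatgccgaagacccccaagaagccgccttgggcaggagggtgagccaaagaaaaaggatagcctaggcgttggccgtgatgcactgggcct
Mov10: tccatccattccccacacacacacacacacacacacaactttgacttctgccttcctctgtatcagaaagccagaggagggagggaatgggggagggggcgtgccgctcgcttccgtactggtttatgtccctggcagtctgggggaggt
Fkbp6: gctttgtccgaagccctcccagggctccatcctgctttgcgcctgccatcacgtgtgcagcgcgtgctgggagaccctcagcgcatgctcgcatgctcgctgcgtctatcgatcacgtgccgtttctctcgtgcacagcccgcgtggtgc

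None of the 3 PIWI genes passed edgeR's test of all 6 samples against WT in *Kpna6* ΔIBB/ΔIBB testes, and the call of *Piwil1* depended on the processing. *Piwil1* encodes MIWI, the PIWI protein of pachytene spermatocytes and round spermatids. It had 500.0, 542.4 and 621.5 CPM in WT, 513.0, 488.1 and 474.2 CPM in *Kpna6* ΔIBB/ΔIBB and 578.1, 577.2 and 559.6 CPM in *Kpna6*-/- testes. WT and *Kpna6* ΔIBB/ΔIBB samples overlapped through WT replicate 1, and the log2 fold change was -0.17 (SE 0.07, adjusted P = 0.0736). It was -0.24 (adjusted P = 0.0112) without WT replicate 1 and -0.08 (adjusted P = 0.238) without WT replicate 3. *Piwil1* passed in 4 of 18 alternative analyses, the others being DESeq2 (adjusted P = 0.0183), no filter (adjusted P = 0.0407) and all 9 samples in 1 fit (adjusted P = 0.0367). The *Kpna6*-/- samples were all above the *Kpna6* ΔIBB/ΔIBB samples. *Piwil2* encodes MILI, which acts from fetal germ cells to spermatocytes. It had 197.5, 218.0 and 225.5 CPM in WT, 199.1, 208.9 and 220.7 CPM in *Kpna6* ΔIBB/ΔIBB and 197.0, 199.5 and 210.4 CPM in *Kpna6*-/- testes. All groups overlapped (log2 fold change -0.02, SE 0.06, adjusted P = 0.781).

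*Piwil4* encodes MIWI2, the nuclear PIWI protein that directs DNA methylation in fetal germ cells. It had a low level in these adult testes but passed the filter on low counts. It had 1.248, 1.482 and 1.165 CPM in WT, 1.723, 1.038 and 1.636 CPM in *Kpna6* ΔIBB/ΔIBB and 0.906, 1.104 and 1.478 CPM in *Kpna6*-/- testes. The values of all 3 groups overlapped, and with a log2 fold change of 0.17 the SE was 0.25 (adjusted P = 0.629).

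Of the 10 Tudor domain genes, 5 were lower and 1 was higher in *Kpna6* ΔIBB/ΔIBB testes, where 18.9% and 17.7% of all genes tested were. The median log2 fold change of the 10 was -0.17. By TMM 9 of the 10 lay below 0, and with limma on log2(TPM + 1) *Tdrd9* and *Tdrd5* had 0.11 and 0.01 and *Tdrkh* 0.00. *Rnf17*, which encodes a Tudor and RING finger protein of spermatocyte granules, had 227.8, 213.8 and 220.5 CPM in WT, 173.4, 175.5 and 184.1 CPM in *Kpna6* ΔIBB/ΔIBB and 194.3, 206.0 and 211.0 CPM in *Kpna6*-/- testes. The 3 genotypes did not overlap, and its log2 fold change in *Kpna6* ΔIBB/ΔIBB testes was -0.31 (SE 0.04, adjusted P = 0.000231). The other 4 lower genes had log2 fold changes from -0.22 to -0.17 with adjusted P-values from 0.00758 to 0.0465. They were *Tdrd7* and *Tdrd6*, which encode chromatoid body scaffolds, *Tdrd12*, which encodes a helicase of piRNA amplification, and *Tdrd1*, whose product binds MILI. With scaling by library size only, these 4 had log2 fold changes from -0.12 to -0.07 and did not pass.

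*Tdrd3*, the one Tudor gene that was higher, encodes a reader of methylated arginines that is used in many tissues. Its log2 fold change was 0.19 (SE 0.05, adjusted P = 0.0116), with 48.75 to 50.13 CPM in *Kpna6* ΔIBB/ΔIBB against 42.33 to 44.96 CPM in WT testes. *Stk31*, *Tdrkh*, *Tdrd9* and *Tdrd5* had log2 fold changes between -0.20 and -0.10 and did not pass. Without WT replicate 1, which was the lowest WT sample for most of the list, all 4 were lower, from -0.30 to -0.16 (adjusted P = 0.00154 to 0.0254). That made 9 of the 10 Tudor genes lower, where 3384 of all 19081 genes tested were. Without WT replicate 3, none of these 4 passed, and *Tdrd12* and *Tdrd1* did not pass either (adjusted P = 0.0502 and 0.15). *Stk31* also passed with DESeq2, without a filter and with all 9 samples in 1 fit, and *Tdrd9* with the replicate block. *Tdrkh* passed when summed with the genes that share its sequence. That sum held *Oaz3* at 921 CPM in WT against 51.33 CPM for *Tdrkh*, so this pass does not speak for *Tdrkh* itself. *Stk31* had 72.58, 88.23 and 93.18 CPM in WT and 73.14 to 74.19 CPM in *Kpna6* ΔIBB/ΔIBB testes, so that WT replicate 1 lay below the *Kpna6* ΔIBB/ΔIBB samples and the other WT samples above them. *Tdrkh* encodes the mitochondrial anchor that holds PIWI proteins during trimming. One of its transcripts shares 2255 bases with *Oaz3*, an abundant spermatid gene on the opposite strand, and the library kit does not mark strand, so its reads cannot be told apart from those of *Oaz3*. *Oaz3* itself had a log2 fold change of -0.46 (SE 0.04, adjusted P = 2.13e-05).

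Of the 3 helicase genes outside the Tudor group, 1 was higher, 1 lower and 1 did not pass, where 17.7% of all genes tested were higher and 18.9% lower. *Mov10*, which is used in many tissues and restrains retrotransposons, had 21.65, 24.6 and 22.2 CPM in WT, 30.71, 29.6 and 33.16 CPM in *Kpna6* ΔIBB/ΔIBB and 23.29, 24.15 and 23.06 CPM in *Kpna6*-/- testes. The *Kpna6* ΔIBB/ΔIBB samples were above all 6 others, with a log2 fold change of 0.45 (SE 0.07, adjusted P = 0.000662), or a relative level 36.9% higher. *Ddx4* encodes the mouse vasa homologue, the helicase by which germ granules are usually stained. It had 567.2, 595.8 and 579.3 CPM in WT, 501.2, 539.3 and 546.4 CPM in *Kpna6* ΔIBB/ΔIBB and 545.5, 547.8 and 579.6 CPM in *Kpna6*-/- testes. WT and *Kpna6* ΔIBB/ΔIBB did not overlap, and the log2 fold change was -0.13 (SE 0.04, adjusted P = 0.0272), but with scaling by library size only it was -0.03 and did not pass. *Mov10l1*, the germ cell paralogue of *Mov10* that feeds precursors into piRNA processing, had a log2 fold change of 0.01 (SE 0.06), with 98.93 to 107.1 CPM in *Kpna6* ΔIBB/ΔIBB and 95.51 to 109.2 CPM in WT testes.

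Of the 6 genes for processing enzymes and mitochondrial anchors, 1 passed the test as lower, where 18.9% of all genes tested did. *Asz1*, a mitochondrial scaffold of germ granules, had 24.47 to 25.38 CPM in *Kpna6* ΔIBB/ΔIBB and 27.22 to 29.71 CPM in WT testes (log2 fold change -0.19, SE 0.06, adjusted P = 0.0292), and it passed in 6 of 18 alternative analyses. The other 5 had log2 fold changes from -0.11 to 0.08. They were *Henmt1*, whose product methylates the ends of piRNAs, *Pld6*, the nuclease of the mitochondrial surface, *Gpat2*, *Exd1*, and *Pnldc1*, the trimming enzyme. *Henmt1* holds 99.7% of the sequence of the gene *Gm9857*, which overlaps it on the opposite strand, and *Pnldc1* shares stretches of at least 100 bases with 56 other genes, so that the values of both are uncertain.

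The 4 transcription and silencing genes did not pass the test in any comparison. *Mybl1* had 82.06, 81.02 and 76.77 CPM in WT, 83.02, 79.2 and 74.01 CPM in *Kpna6* ΔIBB/ΔIBB and 81.73, 85.85 and 77.94 CPM in *Kpna6*-/- testes. The 3 groups overlapped, and the log2 fold change in *Kpna6* ΔIBB/ΔIBB testes was -0.02 (SE 0.05, adjusted P = 0.82). *Spocd1*, which links piRNAs to DNA methylation, *Tex19.1*, which represses retrotransposons, and *Btbd18*, which promotes transcription of piRNA loci, had log2 fold changes of 0.23, 0.16 and 0.07 with SEs from 0.11 to 0.13. *Spocd1* starts 256482 bases from the end of *Kpna6* on chromosome 4.

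Among the 3 remaining testis genes, *Adad1*, which encodes an RNA-binding protein of germ cell nuclei, was lower with 207.1 to 226.1 CPM in *Kpna6* ΔIBB/ΔIBB against 254.9 to 262.0 CPM in WT testes (log2 fold change -0.24, SE 0.04, adjusted P = 0.001). *Tdrp*, which has no Tudor domain, was higher with a log2 fold change of 0.18 (SE 0.05, adjusted P = 0.0185). *Adad2*, a relative of *Adad1*, had a log2 fold change of -0.14 (SE 0.07, adjusted P = 0.156).

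The transcripts behind these gene sums were examined on the TPM scale. Of the 128 transcripts of the list, 73 held at least 10% of the TPM of their gene in some group, and 14 of these were not annotated as protein coding. *Gtsf1l* and *Rnf17* each had a single transcript. The main transcript of *Gtsf1*, Gtsf1-201, had 343.3, 362.1 and 382.7 TPM in WT and 323.3, 308.8 and 337.1 TPM in *Kpna6* ΔIBB/ΔIBB testes, and Gtsf1-207 had 73.12 to 99.44 TPM against 56.14 to 59.57 TPM. Both were lower in every *Kpna6* ΔIBB/ΔIBB than in every WT sample. For *Fkbp6*, the protein-coding transcript Fkbp6-201 had 13.9, 17.82 and 16.42 TPM in WT and 27.32, 24.38 and 25.14 TPM in *Kpna6* ΔIBB/ΔIBB testes, with no overlap. For *Mov10*, the protein-coding Mov10-207 had 5.11, 5.887 and 6.066 TPM in WT and 9.966, 8.971 and 10.07 TPM in *Kpna6* ΔIBB/ΔIBB testes, again with no overlap. For *Piwil4*, 67.3% of the TPM in WT lay on the processed transcript Piwil4-202, and for *Pld6* 80.7% lay on the processed transcript Pld6-201. For *Adad1*, the largest share in WT, 38.0%, lay on the retained-intron transcript Adad1-202. These shares are estimates by kallisto and were not tested.

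In *Kpna6*-/- compared with WT testes, 0 of the 33 genes were called higher and 0 lower, where 0.889% and 0.712% of all 18681 genes tested were. DESeq2 called 0 of the 33 as well, and 3 had an unadjusted P-value below 0.05 in edgeR's test. These were *Rnf17* (log2 fold change -0.12, SE 0.04), *Tdrp* (0.11, SE 0.05) and *Mael* (-0.07, SE 0.03), and the lowest adjusted P-value of the list was 0.233. The log2 fold changes ranged from -0.17 for *Btbd18* to 0.12 for *Spocd1*, with a median of -0.02 against 0.00 over all genes. *Gtsf1l* and *Gtsf1* had -0.01 (SE 0.05) and -0.05 (SE 0.04), and *Mov10* and *Fkbp6* had 0.04 (SE 0.07) and 0.09 (SE 0.06). The test of this comparison and that of *Kpna6* ΔIBB/ΔIBB used the same WT samples.

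The direct test of *Kpna6* ΔIBB/ΔIBB against *Kpna6*-/- testes, which uses no WT sample, addressed whether the lines differed. In *Kpna6* ΔIBB/ΔIBB testes, 14 of the 33 genes (42.4%) were lower and 3 (9.1%) higher, where 16.8% of all 18752 genes tested were lower and 13.5% higher. *Gtsf1l* and *Gtsf1* had the lowest log2 fold changes, with -0.58 (SE 0.06, adjusted P = 1.6e-05) and -0.36 (SE 0.04, adjusted P = 3.06e-05). *Mov10*, *Fkbp6* and *Tdrd3* were the 3 higher genes, and *Mov10* had the highest log2 fold change with 0.40 (SE 0.06, adjusted P = 0.000415). *Piwil1*, which did not pass against WT, was lower by this test with a log2 fold change of -0.22 (SE 0.03, adjusted P = 0.000528), and *Ddx4*, which passed against WT, was not called, with -0.08 (SE 0.04, adjusted P = 0.171). With scaling by library size only, 71.0% of all genes called were higher, against 44.5% by TMM. Of the list, 3 genes (9.1%) were then lower and 6 (18.2%) higher, where 2016 and 4931 of all 18752 genes were.

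Other genes of small RNA and germ granule biology, taken from a separate list of 29 of which 27 were tested, were examined too. In *Kpna6* ΔIBB/ΔIBB compared with WT testes 5 were higher (18.5%, where 17.7% of all genes were), 6 were lower (22.2%, where 18.9% were) and 16 did not pass, so that both shares were near those of all genes. The median log2 fold change was -0.04, and the values ranged from -0.48 to 0.64. The 4 genes with the smallest adjusted P-values were *Tex15*, *Snd1*, *Boll* and *Kif17*. *Tex15*, which acts with PIWI proteins in transposon methylation, was lower (log2 fold change -0.48, SE 0.07, adjusted P = 0.000356). *Boll*, an RNA-binding protein of meiotic cells, and *Kif17*, a kinesin found in the chromatoid body, were lower too (-0.22 and -0.21, each with an SE of 0.04). *Snd1*, a Tudor nuclease used in many tissues, was higher (0.35, SE 0.07, adjusted P = 0.00173). The highest values were those of *Dnmt3c* (0.64, SE 0.17, adjusted P = 0.0146), a DNA methyltransferase of male germ cells, and *Ago1* (0.44, SE 0.10, adjusted P = 0.00731), a microRNA-binding protein, both named after their values were seen.

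The calls differed in how far they depended on the processing. Against WT, *Gtsf1l*, *Gtsf1* and *Rnf17* were lower and *Mov10* and *Fkbp6* higher in *Kpna6* ΔIBB/ΔIBB testes in all 18 alternative analyses. *Tdrd3* passed in 16, *Mael* and *Adad1* in 15, *Tdrd6* and *Tdrd7* in 14, *Tdrd12* and *Tdrp* in 12, *Ddx4* in 9, *Tdrd1* in 7 and *Asz1* in 6 of the 18. With limma on log2(TPM + 1), which involves no TMM scaling, 3 genes of the list were lower and 3 higher (9.1% each). Over all 22480 genes of that analysis, 1451 were lower and 3494 higher.

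**Figure D4:**
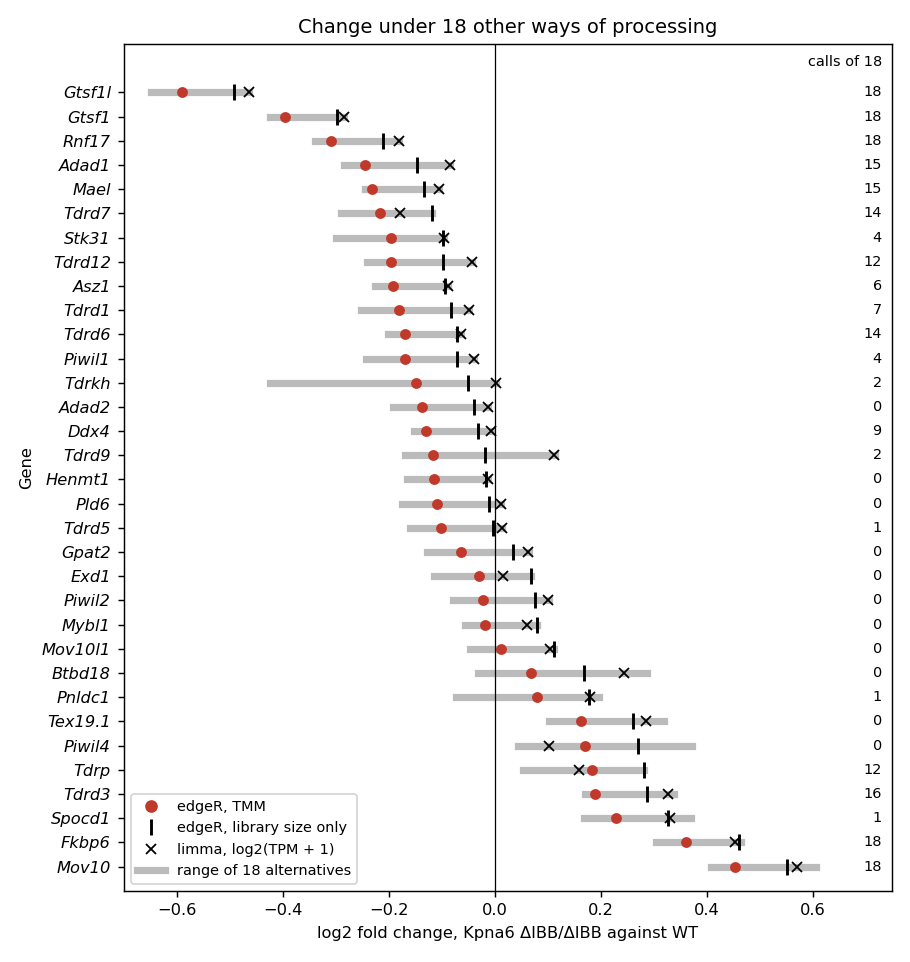
Log2 fold change of each gene in *Kpna6* ΔIBB/ΔIBB against WT testes by edgeR with TMM (red points), by edgeR with library size only (ticks) and by limma on log2(TPM + 1) (crosses), with a grey bar over the range of 18 alternative analyses and, at the right edge, the number of these in which the gene was called. *Gtsf1l*, *Gtsf1*, *Rnf17*, *Fkbp6* and *Mov10* have 18 calls each. The bars of 11 genes reach both sides of 0, and those of all others, called or not, lie on one side.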

How the data were processed

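RNA of 9 whole testes, 3 per genotype, was analysed with the samples grouped by their labels. The authors deposited, for each of 96626 transcripts, estimated counts and TPM values from kallisto (version 0.45 in the submitters' processing notes, mm10). The kit did not mark strand. Both values were summed per gene after 95301 transcripts had been assigned with GENCODE M21. Counts were rounded, filtered with filterByExpr, scaled by TMM and tested between 2 groups at a time (6 samples) by edgeR's quasi-likelihood method (edgeR 4.0.16, R 4.3.3). P-values were adjusted by Benjamini and Hochberg over every gene tested. Members, role groups and marker lists were chosen with earlier results of these data known. Every sample is given for genes with an absolute log2 fold change of at least 0.3 at an adjusted P-value below 0.05, and for *Piwil1*, *Piwil2*, *Piwil4*, *Ddx4*, *Mael* and *Mybl1*. Others are given by range, and up to 4 genes per list are named.

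The labels do not say that each sample of a group came from a different mouse, so P-values measure the spread between these samples. An exact permutation test of 3 against 3 samples cannot give a P-value below 0.1. No pair of replicates was alike within sampling noise (chi-square per degree of freedom 3.6 to 6.68 within groups). Alternatives were DESeq2 1.42.0, limma 3.58.1 on log2(TPM + 1) and log2(TPM + 0.1), other scaling and filters, length-scaled counts, protein-coding transcripts, all samples in 1 fit, the replicate number as a block, counts summed over shared sequence (blastn 2.17.0, 95% identity over 100 bases) and each sample left out. In simulated data for *Kpna6* ΔIBB/ΔIBB against WT over 18797 genes, 100 genes were changed by 1 and 100 by 0.5 on the log2 scale. Of these, edgeR recovered 90 and 64, and it called 7 others. Every simulated gene had the same spread beyond sampling noise, and no sample was made to stand apart. The measured data differ in both, so these counts may not carry over to them. Recovery of smaller changes was not tested, and every gene of the list except *Gtsf1l* (-0.59) had a smaller change against WT than 0.5. Recovery with as many changed genes as the 6874 called in the measured data was not tested either.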

Additional observations from a re-analysis of the deposited data

Results flagged for a closer look

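The change from WT differed between the mutant lines for 17 of the 33 genes, by the direct test of *Kpna6* ΔIBB/ΔIBB against *Kpna6*-/- testes with edgeR (adjusted P-value below 0.05). The 14 lower genes were 42.4% and the 3 higher genes 9.1% of the list, where 16.8% and 13.5% of all genes tested were lower and higher. The log2 fold changes of the lower genes were -0.58 for *Gtsf1l*, -0.36 for *Gtsf1*, -0.22 for *Piwil1*, -0.20 for *Rnf17* and *Tdrd12*, -0.19 for *Pld6* and *Stk31*, -0.18 for *Adad1*, -0.17 for *Mael* and *Tdrd1*, -0.16 for *Asz1* and *Henmt1*, -0.15 for *Tdrd5* and -0.14 for *Tdrd7*. Those of the higher genes were 0.40 for *Mov10*, 0.26 for *Fkbp6* and 0.23 for *Tdrd3*. *Gtsf1l*, *Gtsf1*, *Mov10*, *Fkbp6* and *Tdrd3* passed in all 18 alternative analyses of this comparison. Round spermatid markers (10 of 10) and elongating spermatid markers (10 of 10) were lower and Sertoli cell markers (12 of 12) higher in the same comparison, and their part in these values was not tested.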

How the results depend on the processing

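Against WT, the 4 higher and 11 lower genes of the list in *Kpna6* ΔIBB/ΔIBB testes became 5 lower by library size only, 7 lower with length-scaled counts, and 3 lower (6 called in all) with each of the 3 limma analyses. Leaving out 1 sample gave 7 to 16 lower and 2 to 4 higher (10 to 20 called), with 16 lower without WT replicate 1, 7 lower without WT replicate 3 and 2 higher without *Kpna6* ΔIBB/ΔIBB replicate 2. Among all genes, leaving out 1 sample gave 2744 to 3384 lower and 2420 to 3113 higher. Over all 18797 genes, 3327 higher and 3547 lower became 5416 and 2326 by library size only. With length-scaled counts, 2815 of 18807 genes were lower. With limma, 1451 of 22480 genes were lower on log2(TPM + 1), 1458 of 22480 on log2(TPM + 0.1) and 1328 of 26520 without a filter. In *Kpna6*-/- testes 0 genes of the list were called in all 18 alternatives, whereas over all genes the 166 higher and 133 lower became 349 and 275 without a filter, 10 and 14, 13 and 15, and 7 and 12 with the 3 limma analyses in the same order, 40 and 31 with length-scaled counts, 207 lower with DESeq2, and 49 to 354 higher and 43 to 164 lower with 1 sample left out. The highest value, 354, was without WT replicate 1, and every sample left out moved these counts.

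Between the mutant lines, 17 called genes of the list (3 higher, 14 lower) became 9 (6 and 3) by library size only and 6, 6 and 7 with the 3 limma analyses, with 2 lower in each and 5 higher without a filter. Over all genes, 4931 higher and 2016 lower were called by library size only, 1167, 1182 and 1048 lower with limma, and 1669 higher with length-scaled counts. 2 values turned: *Pnldc1* against WT was -0.073 (adjusted P = 0.0435) when summed with the 56 genes that share its sequence, and *Tdrkh* between the lines was 0.144 (adjusted P = 0.0498) with limma and no filter. The replicate numbers did not pair the samples (correlation of deviations -0.056 to 0.078). With the replicate block 11 genes of the list were lower and 4 higher against WT, where 3516 and 3277 of all 18797 genes were. Between the lines it gave 15 lower and 3 higher, where 3352 and 2680 of all 18752 genes were. The sign changed under some alternative for 11 genes of the list in *Kpna6* ΔIBB/ΔIBB against WT, 10 between the lines and 16 in *Kpna6*-/- against WT. The cause of these differences was not tested.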
